A study of Homo sapiens with 9 samples.

Results

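The 45 genes described here are antiviral genes whose transcription is switched on by interferons. They were chosen by gene symbol from a list, and all 45 were among the 36385 genes of the deposited table. Their RNA was measured in MG-63, an established human line from an osteosarcoma that serves as an osteoblast model, grown for 7 days on 3 surfaces. The surfaces were Ti6Al4V, a titanium alloy of implants (bare alloy); Ti6Al4V with the boride TiB2 (TiB2); and boronized Ti6Al4V with HA (HA coating). The osteogenic medium of all 3 groups held dexamethasone at 100 nM, ascorbic acid at 50 µg/mL and beta-glycerophosphate at 10 mM, and no group is labelled as given an interferon or a virus. Each surface had 3 libraries, which the labels place in a single batch; by the labels, the submitters' final analysis did not include TiB2. Separate cultures are not stated for the libraries of a surface. Every p-value below therefore reflects library-to-library spread, possibly a technical one.

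Type I and type III interferons bind receptors on the cell surface, and the kinases JAK1 and TYK2 then phosphorylate STAT2. With IRF9 it is part of the factor ISGF3, which binds a DNA element called ISRE in front of the genes described here. Their products include sensors of foreign RNA, enzymes and membrane proteins that block single steps of viral growth, and the factors of the pathway itself. Many of them are also expressed at a lower level without infection.

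The ISRE is shown first because it is the sequence these genes are known to share. In RefSeq promoter windows of GRCh38.p14, 37 of the 45 genes had an entry. The core letters GAAA, NN and GAAA in a row (N is any base), searched on both strands (TTTC, NN and TTTC on the other) in the 250 bases before each start, with overlapping matches counted, occurred in 25 of the 37 (67.6%). Of all 27305 genes with a window, 1014 (3.71%) held them. The first 6 stretches below belong to the genes with the largest called changes in the comparisons that follow and a match. ISG20 and HERC5, which did otherwise, were added after their values were seen. Capitals mark the matches, and each stretch is written 5′ to 3′ on the strand of the gene.
IFI44L (chr1:78620269-78620399, plus strand): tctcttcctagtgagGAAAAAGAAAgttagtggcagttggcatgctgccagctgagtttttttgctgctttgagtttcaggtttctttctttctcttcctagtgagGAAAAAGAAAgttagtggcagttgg
ISG15 (chr1:1013369-1013414, plus strand): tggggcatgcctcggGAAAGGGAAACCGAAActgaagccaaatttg
IFI27 (chr14:94110613-94110665, plus strand): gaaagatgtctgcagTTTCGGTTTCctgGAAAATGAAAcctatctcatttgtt
IFI6 (chr1:27672261-27672363, minus strand): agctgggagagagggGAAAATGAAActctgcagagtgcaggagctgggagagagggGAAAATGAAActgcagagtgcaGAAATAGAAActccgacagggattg
LGALS3BP (chr17:78979957-78979996, minus strand): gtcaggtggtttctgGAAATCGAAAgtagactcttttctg
SAMD9 (chr7:93118091-93118130, minus strand): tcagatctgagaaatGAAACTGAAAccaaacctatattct
ISG20 (chr15:88638932-88638971, plus strand): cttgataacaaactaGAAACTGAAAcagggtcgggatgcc
HERC5 (chr4:88456979-88457069, plus strand): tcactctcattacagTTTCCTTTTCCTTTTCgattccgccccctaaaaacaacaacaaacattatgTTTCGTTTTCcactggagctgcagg
In ISG15 a match begins 113 bases before the start and another, at 107 bases, overlaps it. IFI44L carries the same run of 40 bases, match included, 2 times in its stretch, and IFI6 a run of 27 bases 2 times. HERC5 has 3 matches, all on the other strand. A match is a description of letters, not a site known to be bound. The 25 genes with a match had a median log2 fold change of -0.96 on TiB2 and the 12 without -0.76, so both kinds were lower there. Of them 23 of 25 and 11 of 12 were called lower by the test described below, against 12.2% of all genes.

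Levels are given as CPM (read counts relative to each library's total, with TMM factors from the 9 libraries) and, between genes, as the authors' FPKM, which is per gene length. Totals were 58464306 to 72542556 counts per library, and the 45 genes had 414 counts or more in each library, so counting error was small beside the spread between libraries. Some libraries stood apart. Rows in ribosomal DNA repeats took 6.48% of counts in bare alloy replicate 1, 1.07% and 0.617% in replicates 2 and 3, and 0.0832% to 0.197% in the other 6. Of 10 T cell markers, all in the table, the summed level was 7.35 to 10.4 CPM in 5 libraries (bare alloy replicates 2 and 3 and the 3 TiB2 libraries) and 0.293 to 1.17 CPM in the 4 others, where CD3D, CD3E, CD3G and LCK had 0 counts (3 counts, the limit for a 0, are 0.045 to 0.0548 CPM in the 9 libraries). Not every marker followed this split. TRAC had counts only in HA replicate 3, and CD2 only in TiB2 replicate 3. ZAP70 had counts in all 9 libraries, and CD3G had 0 counts in TiB2 replicate 3 as well. PTPRC, which marks blood cells, lay at 0.112 to 0.992 CPM. Of 6 markers of an osteoblast line, VIM (2770 to 7170 CPM), SPARC (1430 to 4370 CPM), COL1A1 (641 to 3400 CPM) and COL1A2 (503 to 3820 CPM) were high in all libraries, while RUNX2 (2.08 to 4.16 CPM) and ALPL (1.1 to 16.2 CPM) were low. Of the epithelial markers EPCAM lay at 0.479 to 1.16 CPM, CDH1 at 0.0958 to 0.548 CPM and KRT19 at 6.72 to 11.6 CPM, in a line that the labels call epithelial-like. Replicate pairs differed by more than sampling noise: the median squared difference was 60.1 to 97.2 times its Poisson value within the HA coating and 13.4 to 19.1 times within the other surfaces.

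On bare alloy the 45 genes were all expressed, and together took 1.68% to 1.77% of all counts. Per gene length the highest was BST2, or tetherin, which holds budding virus at the membrane, with 1450 ± 24.8 FPKM (SD, n = 3). IFITM1 followed with 890 ± 32.3 FPKM, then IFITM3 with 552 ± 15.1 and IFI6 with 533 ± 108, the last pair within their spread. LGALS3BP (362 ± 12.9 FPKM) and ISG15 (314 ± 7.82 FPKM) came next, and the lowest were MX2 (5.93 ± 0.348 FPKM) and ISG20 (1.01 ± 0.147 FPKM). The replicates of bare alloy lay close together for these genes. The median coefficient of variation was 6.7%, against 12.5% over 21213 kept genes, which were not matched to the 45 in level. It was 15.5% on TiB2 (13.4% over all) and 23.3% on the HA coating (27.7% over all). Within TiB2 the genes varied together, with replicate 2 the lowest library for 41 of the 45 and replicate 3 the highest for 42. Within the HA coating replicate 1 was lowest for 30 of the 45, while replicates 2 and 3 were highest for 20 and 22.

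**Figure D1:**
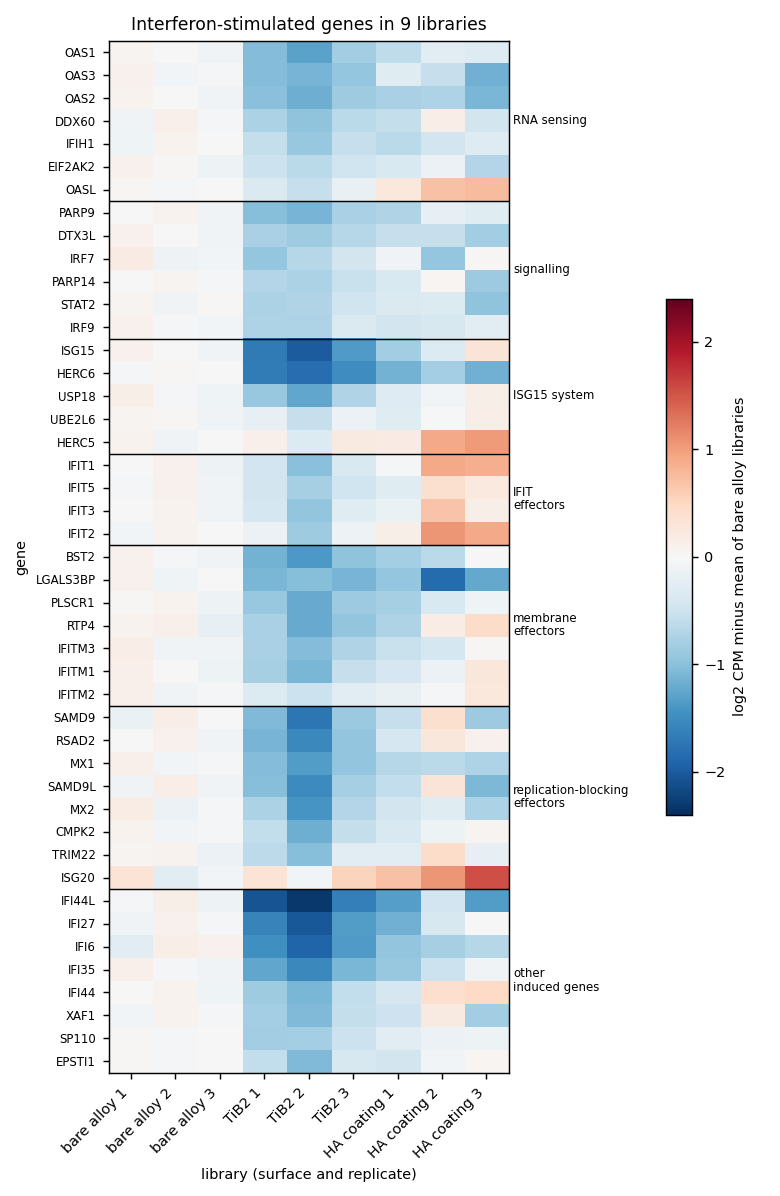
Heat map of log2 CPM of each gene (rows, by role) in each library (columns), as the difference from the mean of the 3 bare alloy libraries. Blue marks lower and red higher: the TiB2 columns are blue in nearly all rows, and the HA columns hold both colours, with ISG15 at 164 CPM in HA replicate 1 and 361 CPM in replicate 3.

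TiB2 was set against bare alloy first. The antiviral genes fell almost throughout: 41 of 45 passed edgeR's quasi-likelihood test downward (Benjamini-Hochberg adjusted p under 0.05 over 20152 genes) and none upward, either adjusted or at an unadjusted p under 0.05, at which 42 were lower. Over all genes tested 12.2% were called lower and 12.9% higher, and 18.2% and 18.5% at the unadjusted threshold. The median log2 fold change was -0.80, against 0.00 over all genes. In 43 of the 45 genes every TiB2 library lay below every bare alloy library, which held for 21.5% of all genes (20.7% lay above), and HERC5 and ISG20 overlapped. Their share of all counts was 0.803% to 1.05% on TiB2. Of the markers named above, COL1A2 (-1.79), COL1A1 (-1.24), VIM (-0.79) and SPARC (-0.74) also fell on TiB2, as did CDH5 of endothelial cells (-3.01), and ALPL (2.91) and RUNX2 (0.67) rose. On the HA coating COL1A2 (-2.14), COL1A1 (-1.42), SPARC (-1.21) and CDH5 (-3.49) fell and ALPL rose (2.67), all by edgeR. CDH5 was the sole endothelial marker on the list called lower by edgeR. PECAM1 was not called on either surface, and all its HA libraries lay above bare alloy. VWF was not called on TiB2 and was not tested on the HA coating. The part of the marker shifts in the antiviral genes' values was not tested. In bulk RNA fewer cells of a kind and less RNA per cell cannot be told apart. Without bare alloy replicate 1, the library with the most ribosomal DNA counts and the lowest T cell sum, 38 were called lower and the median was -0.83. DESeq2 called 42 lower and none higher (14.2% of all genes lower).

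Among the sensors of RNA, 7 of 7 were called lower on TiB2 (12.2% of all genes were). The OAS enzymes, which make a short signal RNA that activates RNase L, lie side by side on chromosome 12 and fell by similar amounts. OAS2 (ENSG00000111335, GRCh38 chr12:112978395-113011723) had 458, 427 and 407 CPM on bare alloy, 215, 190 and 239 CPM on TiB2 and 250, 259 and 201 CPM on the HA coating. Both coated groups lay below bare alloy without overlap and overlapped each other. Its log2 fold change was -1.0 ± 0.09 on TiB2 (SE; edgeR adjusted p = 9.06e-05). On the HA coating it was -0.87 ± 0.17 (edgeR adjusted p = 0.0166), a call lost in 3 of the 6 omissions of a library. OAS1 and OAS3 stood at -1.03 each on TiB2 and at -0.39 and -0.63 on the HA coating, where neither passed by edgeR and DESeq2 called OAS3 lower (DESeq2 adjusted p = 0.0463). IFIH1, or MDA5, which detects long double-stranded RNA, had 120, 136 and 129 CPM on bare alloy and 86.2, 68.4 and 87.3 CPM on TiB2 (-0.67 ± 0.10; edgeR adjusted p = 0.00134). DDX60, a helicase linked to RNA sensing, stood at -0.78 on TiB2, and EIF2AK2, or PKR, the kinase that halts translation on double-stranded RNA, at -0.55.

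OASL differed from the OAS enzymes. It is a relative without their enzyme activity and lies apart from them on the same chromosome. It had 77.9, 74.9 and 75.6 CPM on bare alloy, 59.5, 51.8 and 67.5 CPM on TiB2 and 90.8, 124 and 129 CPM on the HA coating. The 3 groups did not overlap, with TiB2 lowest and the HA coating highest. Its log2 fold change on TiB2 was -0.35 ± 0.10 (edgeR adjusted p = 0.0265), a call that only the omission of TiB2 replicate 3 left standing among the 6 omissions of a library. On the HA coating it stood at 0.58 ± 0.17 (edgeR adjusted p = 0.0637; DESeq2 adjusted p = 0.0146).

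The factors that carry the interferon signal fell on TiB2 by less than the most changed effectors. STAT2 had 151, 137 and 147 CPM on bare alloy, 85.9, 88.4 and 104 CPM on TiB2 and 114, 116 and 74.1 CPM on the HA coating. TiB2 and the HA coating each lay below bare alloy without overlap, and its fold change on TiB2 was -0.64 ± 0.09 (edgeR adjusted p = 0.000792). IRF9, its DNA-binding partner, stood at -0.59 and IRF7, which amplifies interferon transcription, at -0.68 on TiB2, and both passed. IRF9 is overlapped on its own strand by another row of the table with 48.7% of its level, so its reads may be split. PARP9, DTX3L and PARP14 lie together on chromosome 3. PARP9 and the ubiquitin ligase DTX3L form a complex, start head to head and overlap on opposite strands. DTX3L had 100% of the level of PARP9, and reads may be shared where exons coincide. DTX3L (ENSG00000163840, chr3:122564338-122575203) had 376, 351 and 331 CPM on bare alloy, 205, 196 and 219 CPM on TiB2 and 241, 241 and 197 CPM on the HA coating. It fell on both coated surfaces, by 0.77 on the log2 scale on TiB2 (SE 0.08; edgeR adjusted p = 0.000123) and by 0.64 on the HA coating (SE 0.17; edgeR adjusted p = 0.0428). PARP9 stood at -0.97 on TiB2 and at -0.40, not called, on the HA coating. The call of DTX3L on the HA coating was lost in 9 of 15 alternatives. It was the sole call there among these 6 signalling genes (4.88% of all genes were called lower), and all 6 values were below 0.

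ISG15 is a small protein attached to others like ubiquitin: UBE2L6 carries it, HERC5 and its relative HERC6 act or may act as the ligase, and USP18 removes it. ISG15 (ENSG00000187608, chr1:1001138-1014540) had 311, 289 and 273 CPM on bare alloy and 90.1, 72.7 and 113 CPM on TiB2. In the HA libraries it had 164, 232 and 361 CPM, a range that took in the bare alloy values. It fell 3.15-fold on TiB2 (-1.66 ± 0.14; edgeR adjusted p = 5.55e-05) and did not pass on the HA coating (-0.22 ± 0.26; edgeR adjusted p = 0.639). USP18 stood at -0.94 (called) and -0.07 (not called). UBE2L6 did not pass on either surface by edgeR (-0.29 and -0.04; edgeR adjusted p = 0.0861 and 0.904), and DESeq2 called it lower on TiB2 (DESeq2 adjusted p = 0.0342).

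The neighbours HERC6 and HERC5, on chromosome 4 with 14021 bases between them, had different values. HERC5, and IFIT2 below, passed in no comparison by edgeR and were picked for full values after these were seen. HERC6 (ENSG00000138642, chr4:88378739-88443097) had 121, 125 and 122 CPM on bare alloy, 38.1, 34.5 and 43.5 CPM on TiB2 and 56.1, 69.5 and 55.5 CPM on the HA coating. The 3 surfaces did not overlap, and the bare alloy libraries lay within a few CPM of each other. It fell 3.16-fold on TiB2 (-1.66 ± 0.09; edgeR adjusted p = 4.14e-06) and 2.04-fold on the HA coating (-1.03 ± 0.16; edgeR adjusted p = 0.00542). HERC5 (ENSG00000138646, chr4:88457119-88506163) had 33.9, 30.2 and 31.6 CPM on bare alloy, 34.5, 25.3 and 37.2 CPM on TiB2 and 36.6, 60 and 64.3 CPM on the HA coating. On TiB2 it overlapped bare alloy (0.02 ± 0.14; edgeR adjusted p = 0.932), and on the HA coating all 3 libraries were above bare alloy without passing (0.74 ± 0.21; edgeR adjusted p = 0.0613; DESeq2 adjusted p = 0.0123).

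**Figure D2:**
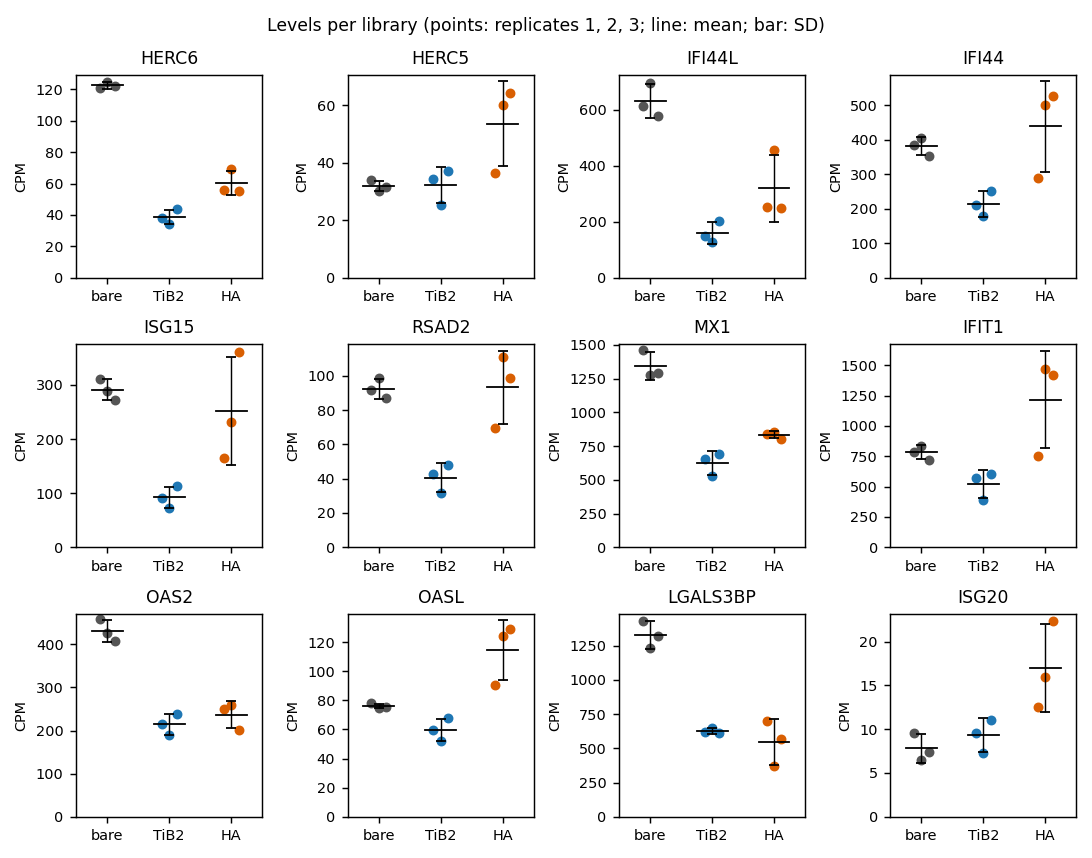
CPM of 12 genes in each library by surface (points: replicates 1, 2 and 3 from left to right; line and bar: mean and SD; axes start at 0). HERC6 lies between 34.5 and 43.5 CPM on TiB2 and between 121 and 125 CPM on bare alloy, while HERC5, its neighbour, lies between 25.3 and 37.2 CPM in those 6 libraries.

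The IFIT genes, which encode proteins that bind viral RNA ends and block its translation, were among the least lowered on TiB2 and the only role with all values above 0 on the HA coating. They form a cluster on chromosome 10. IFIT1 (ENSG00000185745, chr10:89392546-89406487) had 789, 835 and 721 CPM on bare alloy, 570, 391 and 602 CPM on TiB2 and 754, 1470 and 1420 CPM on the HA coating. TiB2 lay below bare alloy without overlap, and HA replicate 1 sat within the bare alloy range while replicates 2 and 3 lay above it. The fall on TiB2 was -0.58 ± 0.15 (edgeR adjusted p = 0.0182), lost without bare alloy replicate 2 (edgeR adjusted p = 0.065). On the HA coating IFIT1 stood at 0.63 ± 0.26 (edgeR adjusted p = 0.155). IFIT2 had 261, 289 and 270 CPM on bare alloy, 248, 151 and 252 CPM on TiB2 and 303, 568 and 514 CPM on the HA coating, with every HA library above and every TiB2 library below bare alloy. It did not pass on either surface by edgeR (-0.33 on TiB2 and 0.75 on the HA coating; edgeR adjusted p = 0.185 and 0.0779; DESeq2 adjusted p = 0.0135 for the latter). IFIT3 and IFIT5 fell on TiB2 by 0.53 and 0.56 on the log2 scale, the call of IFIT3 being lost in 4 of the 6 omissions (any bare alloy library or TiB2 replicate 1), and stood at 0.25 and 0.13 on the HA coating. LIPA, on the other strand, overlaps IFIT1, IFIT2 and IFIT3 with 15.8%, 42% and 27% of their levels. Whether counting used the strand is not stated, so reads of these genes cannot be told apart where exons coincide.

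Among the membrane effectors 7 of 7 were called lower on TiB2 (12.2% of all genes were). BST2 (ENSG00000130303, chr19:17402939-17405630) had 1840, 1680 and 1610 CPM on bare alloy, 782, 655 and 873 CPM on TiB2 and 969, 1090 and 1720 CPM on the HA coating. HA replicate 3 reached the bare alloy range and the other 2 HA libraries did not. It fell 2.21-fold on TiB2 (-1.15 ± 0.12; edgeR adjusted p = 0.000135) and did not pass on the HA coating (-0.45; edgeR adjusted p = 0.268). IFITM1, IFITM2 and IFITM3, which keep viruses from fusing with cell membranes, stood at -0.80, -0.36 and -0.85 on TiB2, all called, and at -0.08, 0.01 and -0.30 on the HA coating, none called. They are near copies of each other within a short stretch of chromosome 11, and reads may be shared between them. PLSCR1, a membrane phospholipid scramblase, and RTP4, a chaperone of receptors, stood at -0.99 and -0.96 on TiB2.

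LGALS3BP, a secreted glycoprotein that binds galectins, was the member with the largest fall on the HA coating. It (ENSG00000108679, chr17:78971238-78979927) had 1430, 1230 and 1320 CPM on bare alloy, 616, 648 and 614 CPM on TiB2 and 700, 370 and 567 CPM on the HA coating. All 6 coated libraries lay below all 3 bare alloy libraries. It fell 2.12-fold on TiB2 (-1.08 ± 0.09; edgeR adjusted p = 3.31e-05). On the HA coating it fell 2.44-fold (-1.29 ± 0.25; edgeR adjusted p = 0.0147), a call lost in 3 of the 6 omissions of a library. It alone of the 45 stood below 0 in the HA coating against TiB2 (-0.21, 95% interval -0.73 to 0.31), a difference that did not pass.

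Of the effectors that act on viral replication 7 of 8 were called lower on TiB2 (12.2% of all genes were). MX1, a dynamin-like GTPase that traps viral nucleocapsids (ENSG00000157601, chr21:41420020-41459637), had 1460, 1280 and 1290 CPM on bare alloy, 654, 527 and 693 CPM on TiB2 and 837, 858 and 806 CPM on the HA coating. The 3 surfaces did not overlap and the HA libraries lay close together. It fell 2.15-fold on TiB2 (-1.10 ± 0.11; edgeR adjusted p = 0.000166). On the HA coating it fell 1.62-fold (-0.69 ± 0.17; edgeR adjusted p = 0.0371), a call lost in 4 of the 6 omissions of a library. Its neighbour MX2 stood at -0.93 (called) and -0.49 (not called).

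RSAD2, or viperin, makes a chain-terminating nucleotide from CTP, and CMPK2, a nucleotide kinase, starts next to it in the opposite direction. The pair overlaps on opposite strands, CMPK2 with 61.6% of the level of RSAD2, and reads may be shared where exons coincide. RSAD2 (ENSG00000134321, chr2:6865557-6898221) had 91.7, 98.8 and 87.2 CPM on bare alloy, 42.6, 31.6 and 47.7 CPM on TiB2 and 69.8, 111 and 98.8 CPM on the HA coating. TiB2 was apart from both other surfaces, which overlapped. It fell 2.27-fold on TiB2 (-1.18 ± 0.14; edgeR adjusted p = 0.000284) and stood at 0.00 ± 0.19 on the HA coating (edgeR adjusted p = 0.992). CMPK2 went from -0.75 (called) on TiB2 to -0.13 (not called) on the HA coating. SAMD9 and SAMD9L, neighbours that restrict poxviruses, stood at -1.19 and -1.09 on TiB2. TRIM22, a ubiquitin ligase, fell by 0.61, a call lost without bare alloy replicate 1, bare alloy replicate 2 or TiB2 replicate 1, and TRIM5, on the other strand, overlaps it with 51% of its level.

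ISG20, an exonuclease that degrades viral RNA (ENSG00000172183, chr15:88635670-88656483), was the sole one of the 45 called higher by edgeR in any comparison. It had 9.62, 6.48 and 7.35 CPM on bare alloy, 9.62, 7.33 and 11.1 CPM on TiB2 and 12.5, 16 and 22.4 CPM on the HA coating. The HA libraries lay above all others, and TiB2 overlapped bare alloy. It rose 2.16-fold on the HA coating (1.11 ± 0.26; edgeR adjusted p = 0.0286) and did not pass on TiB2 (0.26 ± 0.20; edgeR adjusted p = 0.388). The rise lost its call without bare alloy replicate 2 or 3 or HA replicate 2 or 3.

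Of the other induced genes 8 of 8 were called lower on TiB2 (12.2% of all genes were). IFI44L, a gene with a feedback role in the interferon response (ENSG00000137959, chr1:78619902-78646145), had the largest change of the 45 there, with 614, 696 and 578 CPM on bare alloy, 149, 126 and 202 CPM on TiB2 and 252, 456 and 247 CPM on the HA coating. The 3 surfaces did not overlap, and HA replicate 2 stood above its fellows. It fell 3.95-fold on TiB2 (-1.98 ± 0.16; edgeR adjusted p = 3.59e-05). On the HA coating it fell 1.98-fold (-0.99 ± 0.26; edgeR adjusted p = 0.0434), a call lost in 5 of the 6 omissions of a library. IFI44, 3650 bases away, had 385, 404 and 353 CPM on bare alloy, 211, 178 and 251 CPM on TiB2 and 288, 500 and 527 CPM on the HA coating. It fell on TiB2 (-0.83 ± 0.12; edgeR adjusted p = 0.000977) and stood at 0.20 ± 0.23 on the HA coating (edgeR adjusted p = 0.632), where its libraries spanned the bare alloy range.

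IFI6, a protein that opposes cell death (ENSG00000126709, chr1:27666064-27672198), had 440, 584 and 563 CPM on bare alloy, 189, 138 and 205 CPM on TiB2 and 273, 302 and 327 CPM on the HA coating, again without overlap. It fell 2.98-fold on TiB2 (-1.57 ± 0.16; edgeR adjusted p = 0.000118). On the HA coating it fell 1.77-fold (-0.82 ± 0.18; edgeR adjusted p = 0.0243), a call lost in 3 of the 6 omissions of a library. IFI27 had 414, 471 and 433 CPM on bare alloy, 144, 107 and 174 CPM on TiB2 and 198, 335 and 444 CPM on the HA coating. It fell 3.10-fold on TiB2 (-1.63 ± 0.15; edgeR adjusted p = 9.07e-05) and did not pass on the HA coating (-0.44; edgeR adjusted p = 0.322), where the libraries ran from near TiB2 up to bare alloy. IFI35 stood at -1.28 on TiB2, XAF1, which antagonises an inhibitor of apoptosis, at -0.80, and SP110, a nuclear body protein, at -0.71. EPSTI1 was the least lowered of this role, at -0.65.

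**Figure D3:**
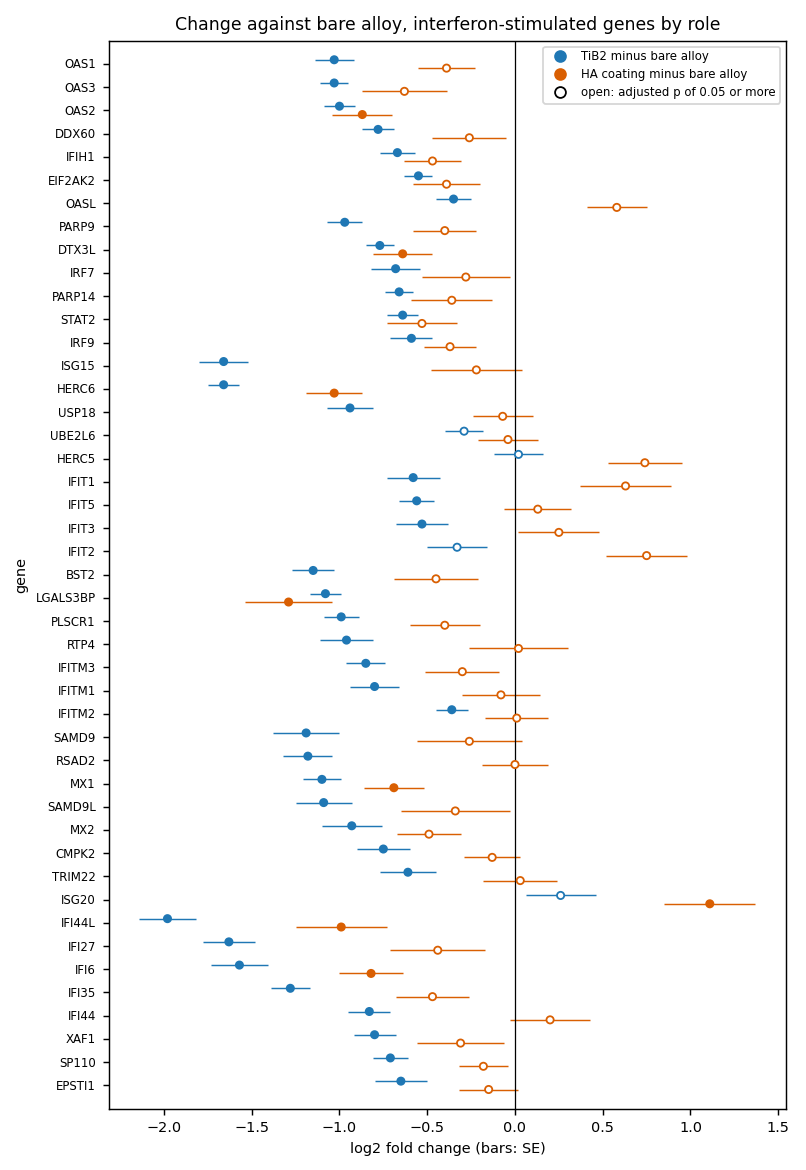
Log2 fold change of each gene, by role, on TiB2 and on the HA coating, each against bare alloy (bars: SE; open points: not past the threshold). The TiB2 points lie between -1.98 and 0.26 and the HA points between -1.29 and 1.11; both use the same 3 bare alloy libraries.

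For boronized Ti6Al4V with HA, the surface in the series title, the question was what differed from bare alloy. Here 7 of the 45 genes fell (HERC6, OAS2, LGALS3BP, IFI44L, IFI6, MX1 and DTX3L), ISG20 rose and 37 did not pass (edgeR, 20117 genes tested). Over all genes 4.88% were called lower and 5.02% higher. At an unadjusted p under 0.05, 13 were lower and 5 higher, against 13.1% and 14.1% of all genes. The median was -0.30 (all genes 0.02), and the values ran from -1.29 to 1.11. All 3 HA libraries lay below bare alloy for 17 genes (17.5% of all genes did so) and above it for 4 (17.0% of all genes): OASL, HERC5, IFIT2 and ISG20. The 7 genes that fell had also fallen on TiB2, a comparison that shares the bare alloy libraries. The number called lower depended on single libraries: it was 2 without bare alloy replicate 1, 1 without replicate 2, 1 without replicate 3 and 4 without HA replicate 2. Over all 6 omissions of a library it ranged from 1 to 9, so it also rose. HERC6 alone kept its call in all 6 omissions (largest edgeR adjusted p = 0.0432). Without HA replicate 1, the lowest HA library for 30 of the 45 genes, 5 genes were called higher. Leaving out a library that is low for these genes raises their HA values in advance, so the 5 are not separate evidence. The share of all genes in that fit is not given here. With a term for the split of libraries by T cell traces, which sets the HA libraries against bare alloy replicate 1 alone, none was called in either direction and the median was -0.31.

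HA coating and TiB2 were compared directly. No member passed edgeR's test in either direction, and 30 had an unadjusted p under 0.05, all higher on the HA coating. Over all 20086 genes 0.179% were called higher and 0.453% lower, and 6.40% were higher and 5.64% lower at an unadjusted p under 0.05. DESeq2 called 13 of the 45 higher and none lower (0.882% of all genes higher), and limma on log2(FPKM + 1) called none (0.144%). The median log2 difference was 0.63 (all genes 0.02), and 44 of 45 values were above 0. For 29 genes every HA library lay above every TiB2 library, which held for 8.69% of all genes, and for none was every HA library below (9.45% of all genes). ISG15 had the largest difference, 1.44 (95% interval 0.79 to 2.09; edgeR adjusted p = 0.0694), followed by IFIT1 with 1.21 (0.59 to 1.84; edgeR adjusted p = 0.109) and RSAD2 with 1.19 (0.68 to 1.69; edgeR adjusted p = 0.0561). For OAS2 the difference was 0.13 (-0.28 to 0.54), for STAT2 0.11 (-0.35 to 0.58) and for DTX3L 0.12 (-0.26 to 0.50). Without HA replicate 1, the lowest HA library for 30 of the genes, 18 were called higher, and without any other library none was. Omitting a library that is low for these genes raises their HA values in advance, so the 18 are not separate evidence. The share of all genes in that fit is not given here. The groups compared here also differ in T cell traces (8.44 to 10.4 CPM summed on TiB2 and 0.645 to 1.17 CPM on the HA coating), whose part in the difference was not tested.

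**Figure D4:**
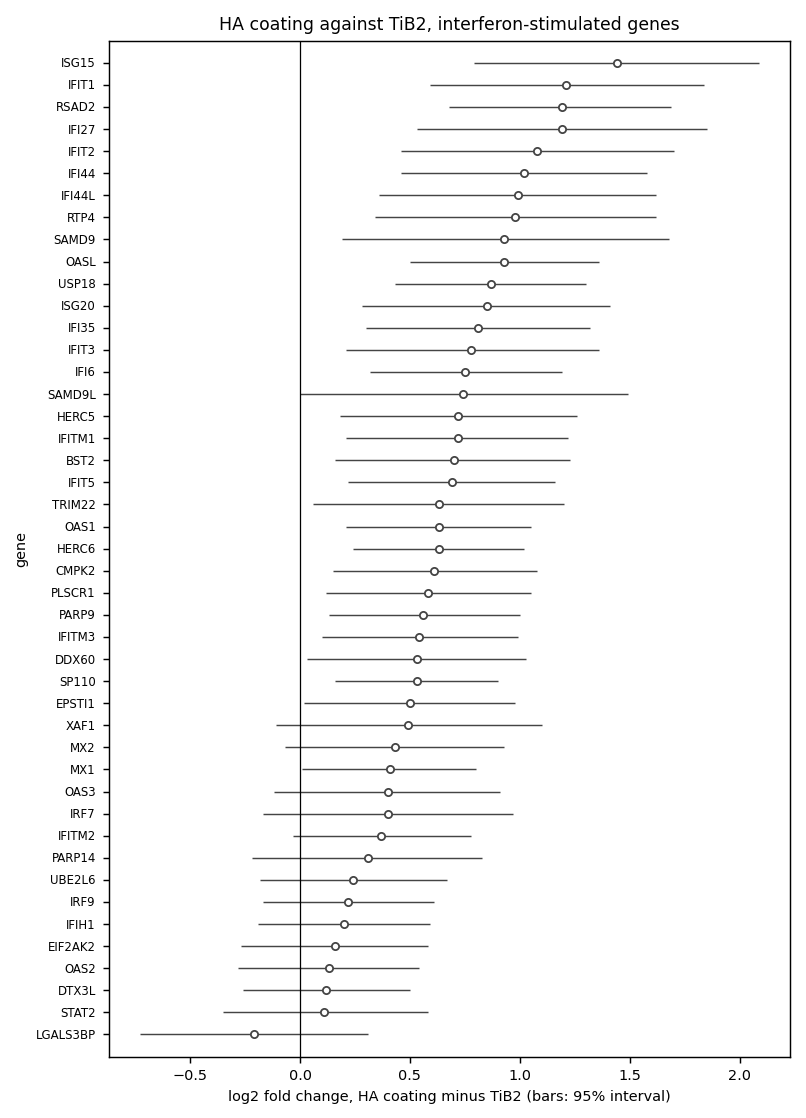
Log2 difference of each gene between the HA coating and TiB2 (points), with 95% intervals, in order of size. ISG15 stands at the top with 1.44, LGALS3BP at the bottom with -0.21, and none passed edgeR's adjusted threshold.

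Other genes of the pathway, from lists of ligands, receptors, sensors and regulators, moved in both directions. Among the interferon genes, 6 had a row and 3 could be tested. IFNB1, the interferon beta gene, had 4 to 75 counts per library. In CPM all its HA libraries lay above all bare alloy and TiB2 libraries. The log2 difference was 1.39 from bare alloy and 2.05 from TiB2, and neither passed by edgeR. IFNA1 had 14 to 70 counts per library, and IFNL1, IFNL2 and IFNL3 had 0 in most libraries and at most 12 counts. IFNE, a type I interferon of epithelia, had 11.5, 11 and 8.86 CPM on bare alloy, 11.1, 10.9 and 14.9 CPM on TiB2 and 16.5, 28.7 and 15.9 CPM on the HA coating. The HA libraries lay above the others, and it rose there (0.96 ± 0.26; edgeR adjusted p = 0.0474). On TiB2 none of the 3 passed by edgeR.

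Of 9 receptor and kinase genes, 1 was called on TiB2: IFNAR2, a chain of the type I receptor, which rose. Over all genes 12.9% were called higher there and 12.2% lower. IFNAR2 had 9.01, 11.6 and 9.60 CPM on bare alloy, 17.5, 18.1 and 26.3 CPM on TiB2 and 18.6, 19.4 and 19.9 CPM on the HA coating. All coated libraries lay above bare alloy, and it rose on both (1.04 ± 0.18, edgeR adjusted p = 0.00261, and 0.93 ± 0.17, edgeR adjusted p = 0.0127). Its partner IFNAR1 stood at -0.05 and -0.02, with 63.8 to 69.5 CPM in all 9 libraries. JAK1 fell on the HA coating (-0.61 ± 0.16, edgeR adjusted p = 0.0437) and stood at -0.14 on TiB2. On the HA coating 1 of the 9 was thus called higher and 1 lower, against 5.02% and 4.88% of all genes.

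Of 11 upstream sensors and adaptors 3 were called lower on TiB2 and 4 higher by edgeR, against 12.2% and 12.9% of all genes. The 3 that fell are themselves interferon-induced RNA sensors: RIGI (listed as DDX58; -0.79 ± 0.15, edgeR adjusted p = 0.00431), DHX58 (-0.71) and TLR3 (-1.02). Those that rose were the DNA sensor CGAS (0.52), the kinases TBK1 (0.31) and IKBKE (1.16), and IRF3 (0.31). On the HA coating IKBKE rose (0.84) and 10 of 11 did not pass, where 5.02% of all genes were called higher and 4.88% lower.

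Several genes known as targets of interferon gamma signalling rose. GBP5, a guanylate-binding protein, had 86.9, 97.4 and 96.6 CPM on bare alloy, 140, 99.7 and 159 CPM on TiB2 and 175, 293 and 276 CPM on the HA coating. It rose on both surfaces (0.50 and 1.40; edgeR adjusted p = 0.0319 and 0.00536), as did GBP4 (0.50 and 1.03). GBP2 rose on TiB2 (0.64) and stood at 0.61, not called, on the HA coating, where WARS1 rose (0.66). IDO1, which breaks down tryptophan, fell on TiB2 (-1.40) and rose on the HA coating (2.94), where it lay at 5.22, 10.7 and 53.3 CPM. IRF1 itself did not pass on either (0.22 and 0.45). Of these genes, which with IRF1, IRF2, GBP1 and GBP3 make a list of 9, 4 rose and 1 fell on TiB2, and 4 rose and none fell on the HA coating by edgeR. Over all genes 12.9% rose and 12.2% fell on TiB2, and 5.02% and 4.88% on the HA coating.

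Of 5 listed negative regulators of the pathway, 3 rose on TiB2 by edgeR (12.9% of all genes did). On the HA coating 2 rose (5.02% of all genes), and none of the 5 fell on either surface. The list holds none of the antiviral genes described above. It therefore leaves out USP18, which was called lower on TiB2 and was not called on the HA coating. SOCS1, which blocks JAK kinases, had 0.658, 1.68 and 1.88 CPM on bare alloy, 5.48, 4.76 and 4.46 CPM on TiB2 and 1.61, 0.454 and 1.95 CPM on the HA coating. TiB2 lay above both other surfaces, and it rose there (1.80 ± 0.34; edgeR adjusted p = 0.00435) and stood at -0.07 on the HA coating. SOCS3 rose on both (1.07 and 1.31), as did the phosphatase PTPN2 (0.67 and 1.00).

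**Figure D5:**
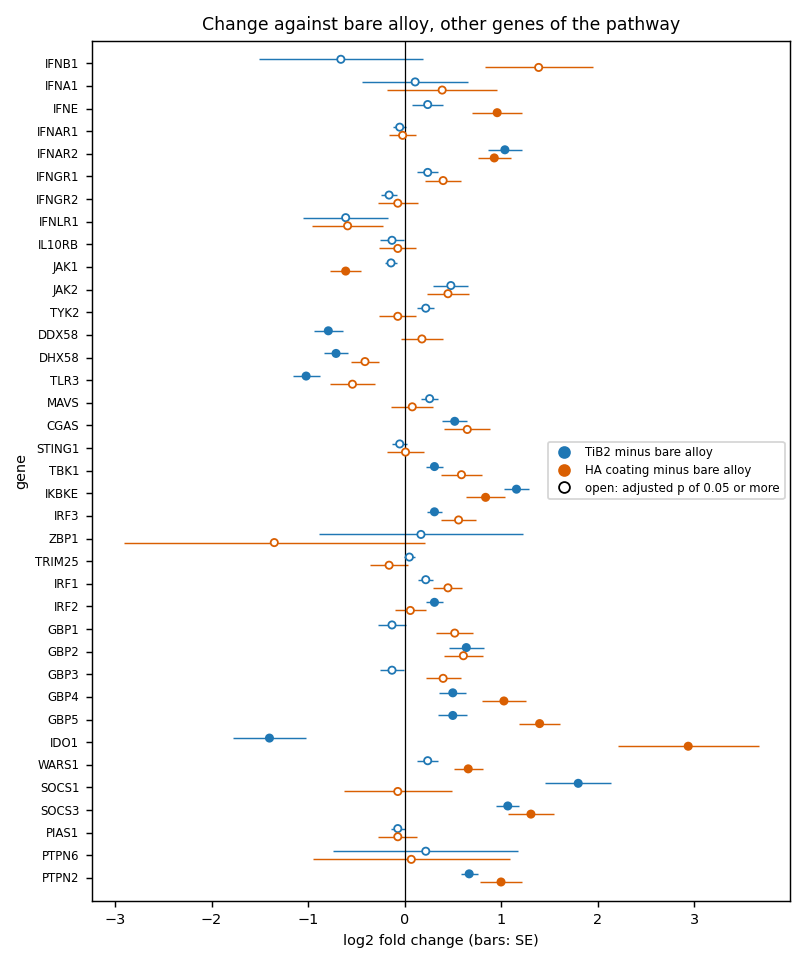
Log2 fold change of the other pathway genes tested in both comparisons, on TiB2 and on the HA coating against bare alloy (bars: SE; open points: not past the threshold; DDX58 is RIGI). TLR3, DDX58 and DHX58 lie at -1.02, -0.79 and -0.71 on TiB2, while IFNAR2, SOCS1 and SOCS3 lie at 1.04, 1.80 and 1.07.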

How the data were processed

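The authors deposited a table with, per gene and library, a raw count and an FPKM value. The submitters' processing notes name featureCounts 2.0.1, HISAT2 2.2.1, cutadapt 2.10, limma, StringTie 2.1.4 and GRCh38 without roles; how strand and multi-mapped reads were handled is not stated. Groups came from the sample titles, and columns were matched to samples by library name. Each comparison used its own 6 libraries: two-sided edgeR 4.0.16 tests under R 4.3.3 (filterByExpr, TMM, glmQLFit, glmQLFTest), with p-values adjusted by Benjamini-Hochberg across every gene tested and called under 0.05. The SE is the size of the log2 fold change divided by the square root of F. Alternatives were DESeq2 1.42.0, limma 3.58.1 on log2(FPKM + 1) and log2(FPKM + 0.1), other filters and scaling, a replicate block, all 9 libraries together, a term for the split of libraries by T cell traces, and each library left out; the fitting steps were tested on simulated data. The floor of 3 counts covers counting error only. Members, roles and pathway lists were chosen with earlier results of these data known; every member could be named (at most 25 with full values), other genes only RIGI, IRF1, ligands and receptors, or those past the threshold. Promoter windows were RefSeq's. Members without a window were OAS2, OASL, IRF7, USP18, IFIT2, IFITM2, MX2 and TRIM22. Protein sequences were not used here, and some results are not reported here.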

Additional observations from a re-analysis of the deposited data

How the results depend on the processing

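For the TiB2 surface against bare alloy, the count of antiviral genes called lower (41) ranged from 32, with all 9 libraries in 1 fit, to 42, and with 1 library left out from 37 to 41, with medians of -0.94 to -0.72; none was called higher in any alternative run. For the HA coating against bare alloy, the count called higher (1) was 4 with DESeq2, 3 with all 9 libraries in 1 fit, and 0 with no filter on low counts, the replicate block or a term for library set. DESeq2 kept the 7 genes called lower and added IFIH1 (DESeq2 adjusted p = 0.0329) and OAS3 (DESeq2 adjusted p = 0.0463). The count called lower (7) was 4 with limma at either pseudocount, 3 with no filter on low counts and 0 with a term for library set. With 1 library left out these counts ranged from 0 to 5 and from 1 to 9, and the median from -0.35 to -0.18. For the HA coating against TiB2 the count called higher (0) was 13 with DESeq2 (0.882% of all genes), 2 with the replicate block and 3 with all 9 libraries in 1 fit. It was 0 to 18 with 1 library left out. For most of these fits the share of all genes called is not given here, so the counts cannot be set against it. The cause of these shifts was not tested. None of the 45 genes reversed a call in any alternative run. Same-numbered libraries share only a number: their deviations correlated at -0.03 for bare alloy with TiB2, -0.08 to 0.11 for bare alloy with the HA coating and -0.13 to 0.05 for TiB2 with the HA coating, and 2, 0 and 0 of 6 libraries correlated best with their own number in the HA coating against bare alloy, TiB2 against bare alloy and the HA coating against TiB2. The replicate block left 40 genes called lower on TiB2 and 5 on the HA coating.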
